A study of Homo sapiens with 15 samples.

Results

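The last step of a knockdown time course in IMR32 cells was examined, in which RNA taken 72 h after the start of doxycycline was set against RNA taken at 48 h. The step was read from the array titles and rests on 6 of the 15 arrays of the series, 3 at 72 h and 3 at 48 h, over all probe sets of the Affymetrix U133 Plus 2.0 array. IMR32 is an established human neuroblastoma line with amplified MYCN. All arrays come from a single isolated clone that carries the tetracycline repressor and a vector for a short hairpin RNA against CDK2, and doxycycline at 100 ng/ml in the medium releases the hairpin. The 72 h and 48 h groups therefore share clone, hairpin and drug and differ in the time of induction, and the earlier groups are 0 h (no induction yet), 8 h and 24 h. No unit of time stands in the labels; hours were assumed from knowledge of the study. No culture without doxycycline and none with a different hairpin is labelled for the later times, so the knockdown, the drug and the time in culture cannot be told apart. Whether the 3 arrays of a time are separate cultures is not stated, so each p-value reflects array-to-array spread, which may be technical.

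CDK2 is the kinase that joins cyclin E and then cyclin A to start and sustain DNA replication, partly by phosphorylating the retinoblastoma family of pocket proteins. When pocket proteins stay active, E2F factors are held in check and the genes for replication are silenced, and the genes for mitosis, which are normally switched on later in the cycle by the MuvB core with B-MYB and FOXM1, follow. In sympathetic neuroblastoma cells, leaving the cycle is often accompanied by neuronal genes, among them RET, which encodes a receptor kinase for ligands of the GDNF family. This is background and not a reading of the data below.

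The targeted gene read lower again at 72 h than at 48 h, though the call depended on the fit. The signal of CDK2 was 30.0, 40.0 and 20.2 on the 3 arrays at 72 h, against 52.7, 53 and 40.1 at 48 h, so the groups did not overlap but came within 0.1 of each other. On the scale log2(signal + 16), which is used for every change given here, CDK2 fell by 0.50 ± 0.14 (SE), with a Benjamini-Hochberg adjusted p of 0.030 in limma over all genes tested. Over the 5 times from 0 h to 72 h its mean signals were 232, 94.5, 80.4, 48.6 and 30.1. The call in the last step was lost under 8 of the alternative fits, among them the fit without 72 h replicate 3 (adjusted p = 0.14, difference -0.34). A second CDK2 probe set differed by -0.28 without passing. The offset of 16 also shrinks changes of dim genes such as this one.

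Of 11774 genes tested, 1258 differed between 72 h and 48 h at an adjusted p under 0.05, which is 10.7% of them. Of these, 535 were higher at 72 h (4.54% of genes tested) and 723 lower (6.14%). The changes were moderate, with medians of 0.48 among the genes that rose and -0.49 among those that fell, beside a median of 0.008 over all genes tested. An absolute change over 1 was reached by 26 genes that rose and 88 that fell. The arrays of the 2 times did not overlap for 527 of the 535 and 701 of the 723, against 29.9% of all genes tested. Falls outnumbered rises, above all among changes over 1. Centring each array on its median moved the split to 328 higher and 696 lower, while it was nearly even with an offset of 64 (634 and 670) and with the replicate number as a block among these 6 arrays (901 and 911). Of the 154 genes named by rule and called in this step, 79 were also measured by further probe sets that passed the filter, of which at least 1 was called in the same direction for 41 genes. The total count was 746 without 48 h replicate 1, 656 without 48 h replicate 2 and 767 without 72 h replicate 3.

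**Figure D1:**
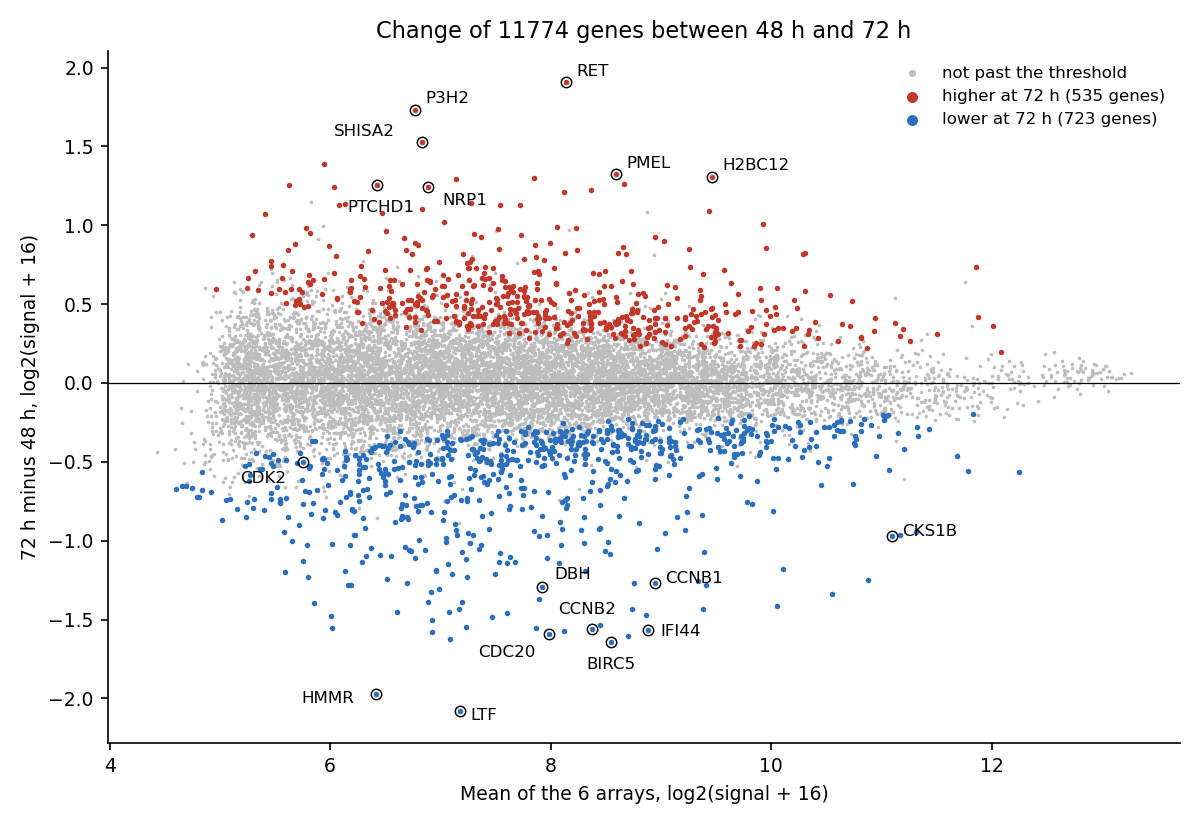
Each point is 1 of the 11774 genes tested, with the mean of the 6 arrays on the horizontal axis and the difference between 72 h and 48 h on the vertical axis, both on the scale log2(signal + 16). The 535 genes higher and 723 lower at an adjusted p under 0.05 are coloured. RET lies highest at 1.91 and LTF lowest at -2.08.

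The arrays were evenly scaled, with a trimmed mean signal of 100.01 on all 15. Median signals were 17.3 to 20.5 at 72 h and 17.5 to 19.3 at 48 h. The third array at 72 h stood apart, with the lowest of the 15 array weights (0.356) and the highest ACTB 3'/5' ratio (1.347). It was the highest of the 72 h arrays for 61.5% of the genes that rose and the lowest for 64.6% of those that fell. The mean signal of the 18S control probe sets was 172.8 to 427.3 at 72 h and 94.4 to 195.7 at 48 h. The part of these differences in the results was not tested beyond the fits without single arrays, with array weights and with replicates 1 and 2 alone. Of 11 markers of neuroblastoma cells on the array 9 passed the filter on low values, 5 of them with a difference above 0. GATA3 had mean signals of 3760 at 72 h and 3690 at 48 h, ISL1 1150 and 903, and HAND2 207 and 191. Lower at 72 h were PHOX2A (1040 and 1210), NCAM1 (559 and 644), MYCN (5290 and 5380) and DBH (144 and 365). Of the 9 only DBH was called. The summed signal of the 11 was 13391.7 to 14509.0 at 72 h and 13024.5 to 15220.8 at 48 h. STMN2 (39.4 at 72 h and 19.5 at 48 h) did not pass the filter. Tyrosine hydroxylase, the first enzyme of catecholamine synthesis, was close to 0 on its probe set (means of 3.73 at 72 h and 2.0 at 48 h). None of the 8 immune markers on the array passed the filter, and their summed signal was 53.5 to 69.3 at 72 h and 37.7 to 66.1 at 48 h. Of 14 Schwann and mesenchymal markers on the array 5 passed it and none was called in limma (3 at an unadjusted p under 0.05), with sums of 4570 to 5048 at 72 h and 4882 to 5680 at 48 h and S100B at means of 1.8 and 1.53.

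Genes of replication and cell division made up most of the large falls. Together, 11 lists of replication and cell division genes held 238 genes tested, of which 163 fell (68.5%) and 1 rose. Of the 88 genes that fell by more than 1, 65 were in these lists, and none of the 26 that rose by more than 1 was. The lists were drawn up with earlier results of these data known, so their counts describe the step and are not independent evidence of its direction.

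In the list of spindle, cytokinesis and anaphase genes, 34 of 36 measured members fell and none rose, with a median of -1.19. HMMR, which encodes a microtubule-associated spindle protein, had signals of 43.3, 25.5 and 16.6 at 72 h against 165.3, 198.7 and 109.1 at 48 h. It fell by 1.97 ± 0.22 (adjusted p = 8.7e-06). BIRC5, the survivin subunit of the chromosomal passenger complex, had 232.8, 216.7 and 147.3 at 72 h against 732.3, 721.4 and 506.8 at 48 h, a fall of 1.64 ± 0.14 (adjusted p = 1.0e-06). For both genes every array at 72 h lay far below every array at 48 h, and the third array was the lowest of each time. CDC20, the activator of the anaphase-promoting complex, had 137.2, 135.1 and 119.1 at 72 h against 544.9, 439.1 and 318.0 at 48 h and fell by 1.59. DLGAP5, a spindle assembly factor, fell by 1.62, ASPM, a spindle pole protein, fell by 1.58, and CEP55, needed for the final cut between daughter cells, fell by 1.50. The other probe sets of ASPM, at -1.10 and -0.75, did not pass. INCENP (-0.57, adjusted p = 0.074) and ARHGAP11A (-0.47, adjusted p = 0.12) were the members that did not pass.

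The kinetochore list behaved alike, with 26 of 28 members lower, none higher and a median of -0.95. NUF2, a subunit of the NDC80 complex that ties microtubules to the kinetochore, had signals of 249.0, 272.5 and 161.3 at 72 h against 729.7, 845.1 and 578.0 at 48 h. It fell by 1.60 ± 0.14 (adjusted p = 1.3e-06). CENPE, a kinetochore motor, fell by 1.48, HJURP, the chaperone that loads the centromeric histone CENPA, by 1.28, and ZWINT by 1.26. CENPA itself fell by 0.59. Of the mitotic kinases and CDC25 phosphatases, 15 of 17 fell and none rose, with a median of -1.14. NEK2, a kinase that separates centrosomes, fell by 1.58, the checkpoint kinases BUB1B and BUB1 by 1.55 and 1.43, and CDC25C, the phosphatase that activates CDK1, by 1.56. For CDC25C the arrays read 25.3, 24.4 and 16.5 at 72 h and 117.2, 107.4 and 67.9 at 48 h, without overlap. PLK1, AURKB and AURKA fell by 1.31, 1.04 and 1.01. CDC25A and CDC25B did not pass, and CDC25A is described further on.

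The condensin and chromosome structure list was more mixed, with 14 of 26 members lower, none higher and a median of -0.40. TOP2A, the topoisomerase that untangles sister chromatids, had 193.9, 195.3 and 176.6 at 72 h against 628.3, 662.6 and 460.6 at 48 h and fell by 1.54 ± 0.11 (adjusted p = 2.6e-07). The condensin subunits NCAPH and NCAPG fell by 1.45 and 1.21, and MKI67, the proliferation antigen Ki-67, by 1.08. Cohesin genes in the same list differed among themselves: the subunit SMC1A fell by 0.35 and CDCA5, which protects cohesion, fell by 0.86, while SMC3 (-0.01), RAD21 (-0.22), STAG1 (-0.24) and STAG2 (-0.19) did not pass. The Polycomb genes EZH2 (-0.21) and SUZ12 (-0.10) did not pass.

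**Figure D2:**
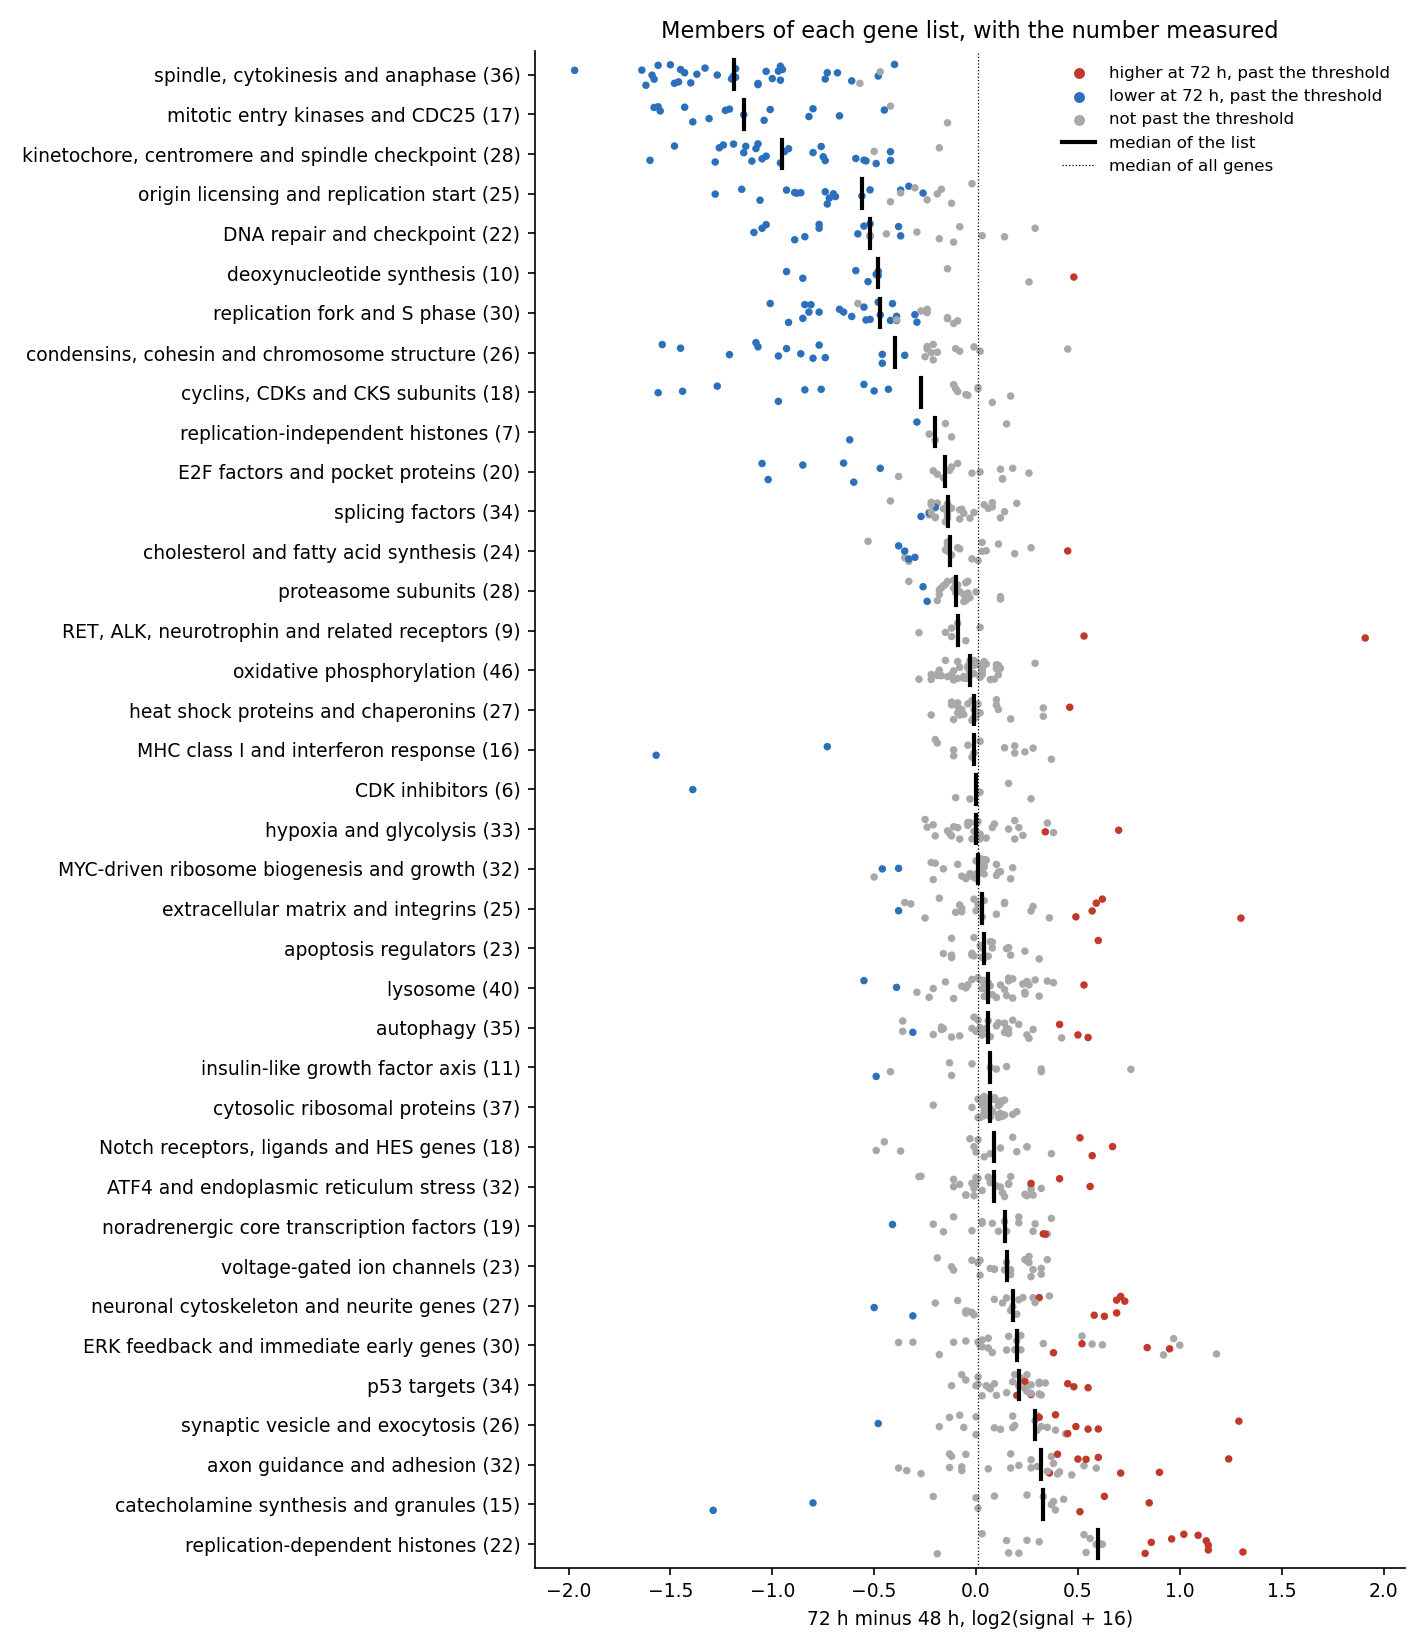
Each point is a member of a gene list, placed by its difference between 72 h and 48 h on the scale log2(signal + 16), and coloured where it passed the threshold. Black bars mark the medians of the lists, and the number of members measured stands in parentheses. The spindle list has its median at -1.19 and the histone list at 0.60, while ribosomal and oxidative phosphorylation genes lie close to 0.

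Replication genes fell too, by smaller amounts. Of the origin licensing and replication start list, 17 of 25 members fell, none rose and the median was -0.56. CDC45, part of the helicase that opens the origin, had signals of 24.8, 35.9 and 29.5 at 72 h against 111.1, 113.6 and 67.8 at 48 h, a fall of 1.28 ± 0.14 (adjusted p = 1.1e-05). CDT1, the licensing factor, fell by 1.15, the helicase subunits GINS2 and MCM6 by 1.06 and 0.93. A second CDT1 probe set was at -0.67 without passing. A second GINS2 probe set went the other way (0.72, not past the threshold), and a second MCM6 probe set was at -0.27 without passing. Of the origin recognition subunits, ORC1 and ORC3 fell by 0.72 and 0.33, while ORC2, ORC4, ORC5 and ORC6 did not pass (-0.19, -0.02, -0.17 and -0.24).

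Of the replication fork list, 21 of 30 members fell and none rose, with a median of -0.47. PRIM1, the primase subunit, fell by 1.01, TIMELESS, a fork protection factor, by 0.92, POLA2 by 0.85 and RPA3 by 0.84. Among other probe sets of POLA2 and TIMELESS none passed, at -0.52 and 0.26 for POLA2 and -0.15 for TIMELESS. PCNA, the sliding clamp, had 861.0, 862.0 and 841.4 at 72 h against 1277.5, 1322.8 and 1166.1 at 48 h and fell by 0.54. The arrays of PCNA were tight within each time, and the 72 h arrays were nearly equal. Of the deoxynucleotide list, 7 of 10 fell and 1 rose. RRM2 and RRM1, the subunits of ribonucleotide reductase in cycling cells, fell by 0.93 and 0.85, and TK1, thymidine kinase, by 0.59. The member that rose was RRM2B, the p53-induced small subunit used outside S phase, with 1218.9, 1269.3 and 1175.3 at 72 h against 710.9, 893.8 and 1028.2 at 48 h (0.48 ± 0.10, adjusted p = 0.0062).

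Of the DNA repair and checkpoint list, 13 of 22 fell and none rose, with a median of -0.52. EXO1, an exonuclease of mismatch repair, fell by 1.09, BRIP1, a helicase bound by BRCA1, by 1.03, and BRCA1 by 0.89. A second BRCA1 probe set was at -0.38 without passing. The sensor kinases ATM (0.29) and ATR (-0.08) did not pass.

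CCNB2 and CCNB1, the mitotic cyclins, fell by 1.56 and 1.27, and CDK1, their kinase, had 305.8, 299.3 and 157.4 at 72 h against 859.0, 808.5 and 467.1 at 48 h and fell by 1.44. CCNA2 fell by 0.84 and CCNE2 by 0.76. CCNE1 read 67.3, 59.9 and 57.5 at 72 h against 60.9, 69.1 and 73.6 at 48 h, with overlapping groups and no call (-0.11, adjusted p = 0.52). CCND1, the cyclin that answers to growth signals, was also not called (0.08, adjusted p = 0.57), nor were CDK4 (0.01) and CDK6 (0.17). In all, 9 of 18 members of the cyclin list fell and none rose. CKS1B, a subunit of CDK complexes, fell by 0.97.

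In the E2F and pocket protein list, which holds both activators and repressors, 6 of 20 members fell and none rose. FOXM1, the activator of mitotic genes, had 53.4, 38.9 and 33.6 at 72 h against 98.6, 129.5 and 84.2 at 48 h and fell by 1.05 ± 0.13 (adjusted p = 3.0e-05). MYBL1 fell by 1.02, E2F8, an atypical repressor, by 0.85 and MYBL2 by 0.65. Leaving out 48 h replicate 1, 48 h replicate 2 or 72 h replicate 3 left 3 calls in this list each time. E2F8 and MYBL2 were not called without 72 h replicate 3 (adjusted p = 0.097 and 0.089). The pocket protein genes RB1 (-0.13), RBL1 (-0.38) and RBL2 (-0.09) did not pass.

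The sequences before the start sites of 6 genes are shown because 4 mitotic genes that fell and 2 drivers of S phase entry that were not called in this step, described further on, hold different cell cycle motifs there. The 100 bases before the RefSeq start (GRCh38.p14) are given 5' to 3' on the strand of the gene, with the searched motifs in capitals. They lie at chr5:163460532-163460631 (plus strand) for HMMR, chr15:59105046-59105145 (plus) for CCNB2, chr1:43358881-43358980 (plus) for CDC20, chr16:23678789-23678888 (plus) for PLK1, chr20:33686386-33686485 (minus) for E2F1 and chr3:48188418-48188517 (minus) for CDC25A.
HMMR: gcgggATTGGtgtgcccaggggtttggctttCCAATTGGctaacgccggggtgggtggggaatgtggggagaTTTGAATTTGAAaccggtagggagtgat
CCNB2: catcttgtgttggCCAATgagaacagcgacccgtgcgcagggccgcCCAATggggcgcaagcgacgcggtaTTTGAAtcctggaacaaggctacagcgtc
CDC20: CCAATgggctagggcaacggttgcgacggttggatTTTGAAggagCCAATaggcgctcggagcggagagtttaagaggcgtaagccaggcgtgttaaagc
PLK1: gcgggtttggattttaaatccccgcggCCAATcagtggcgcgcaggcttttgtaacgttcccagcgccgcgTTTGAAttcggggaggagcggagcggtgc
E2F1: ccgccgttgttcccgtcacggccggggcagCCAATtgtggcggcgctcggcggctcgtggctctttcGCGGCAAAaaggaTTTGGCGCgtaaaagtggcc
CDC25A: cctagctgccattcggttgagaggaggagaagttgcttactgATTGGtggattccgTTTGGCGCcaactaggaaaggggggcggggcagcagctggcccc

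The first 4 carry TTTGAA, the letters of the cell cycle genes homology region (CHR) where the MuvB core sits, and CCAAT, the box of the factor NF-Y. The last 2 carry letters of E2F sites, searched as TTTCCCGC, TTTCGCGC, TTTGCCGC and TTTGGCGC. All motifs were searched on both strands and counted separately, also where their letters overlap, as in HMMR, where CCAATTGG reads as CCAAT on either strand. CCAAT was present in E2F1 and CDC25A as well. These genes were picked after their values were seen. Windows from 250 bases before to 50 after the start were then scored for genes with exactly 1 RefSeq window. TTTGAA was found in 23 of 28 spindle list genes (82.1%), 10 of 20 kinetochore genes, 1 of 16 origin licensing genes (6.25%) and 0 of 22 replication fork genes. It was found in 3542 of all 22114 promoters, 9.13% of the 6810 genes tested, 22.7% of the 436 genes that fell and 6.88% of the 276 that rose. The E2F letters had the other distribution, with 10 of 16 origin licensing genes (62.5%) and 8 of 22 fork genes (36.4%), against 2 of 28 spindle genes (7.14%). They were in 3.18% of all promoters, 5.55% of genes tested, 11.9% of those that fell and 4.71% of those that rose. CCAAT was in 75.0% of the spindle genes, 38.2% of genes tested and 36.2% of all promoters. The motifs did not follow the direction or the role in every list. Of 18 replication-dependent histone genes, a list with rises and no falls, 7 held TTTGAA (38.9%), 14 CCAAT (77.8%) and 4 E2F letters (22.2%), and of 13 repair genes, a list with falls and no rises, 1 held E2F letters (7.69%). A match describes the letters in the window and is not evidence of binding.

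**Figure D3:**
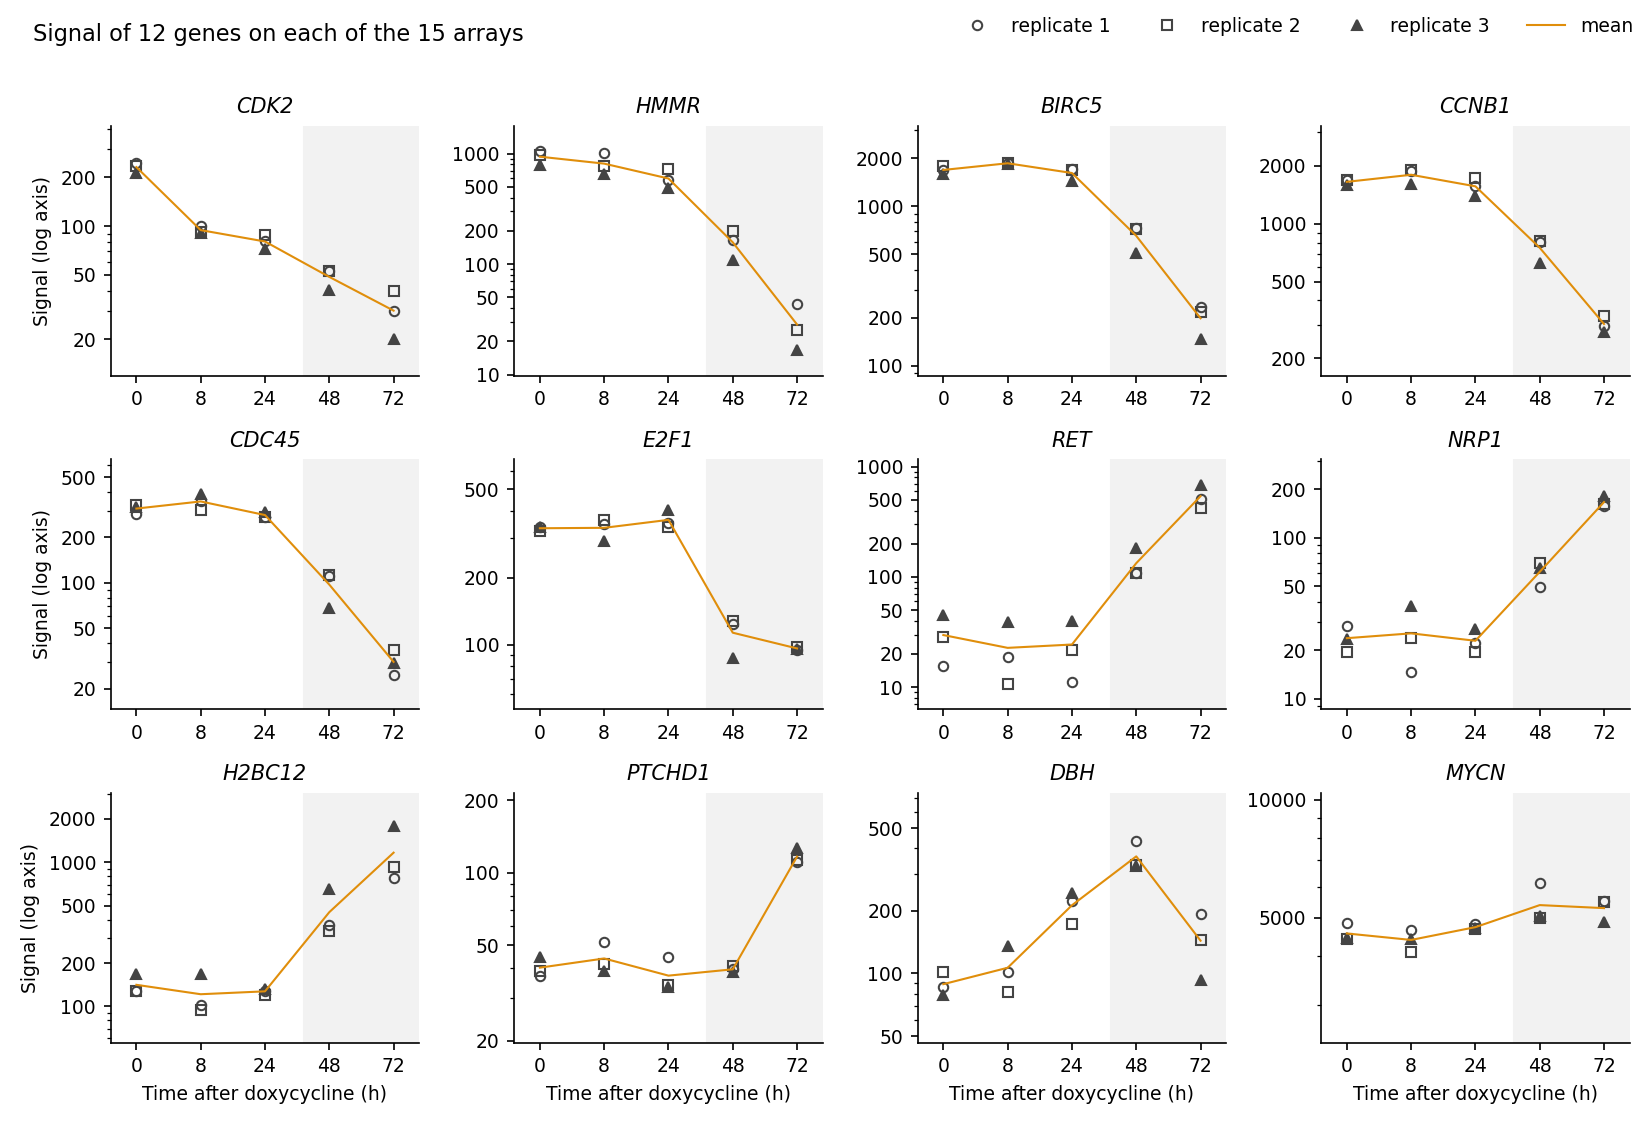
Signal of 12 genes on each of the 15 arrays against time after doxycycline (h), with a log axis. Symbols are the 3 replicates of a time, the line joins the means, and the shaded part is the step from 48 h to 72 h. E2F1 has overlapping arrays in the shaded part, BIRC5, HMMR and CCNB1 go on falling, RET and NRP1 go on rising, PTCHD1 starts to rise, and DBH turns down.

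A direct test of the last step against the step before it, 48 h against 24 h, called 39 genes (0.331% of genes tested), 23 with a higher and 16 with a lower difference in the last step. Both steps use the 48 h arrays. The number moved with them. Leaving out 48 h replicate 1, limma called 0 genes (1606 at an unadjusted p under 0.05), leaving out 48 h replicate 3 it called 0 (1175 at an unadjusted p under 0.05), and leaving out 48 h replicate 2 it called 2, beside 1693 genes at an unadjusted p under 0.05 with all arrays. Leaving out replicates 1, 2 and 3 of 24 h in turn gave 12, 81 and 14, and leaving out replicates 1 and 2 of 72 h gave 13 and 59. With the replicate number as a block the count was 181. The genes with a less negative last step included drivers of S phase entry. E2F1 read 94.3, 97.9 and 95.9 at 72 h, against 124.3, 127.8 and 86.9 at 48 h, with overlap and no call for the last step (-0.19, adjusted p = 0.34). Its change between 24 h and 48 h was -1.57, so that the last step minus the one before came to 1.38 (adjusted p = 0.018). A second E2F1 probe set did fall in the last step, by 0.57. CDC25A, the phosphatase that activates CDK2, was at 75.0, 58.2 and 64.1 at 72 h against 97.6, 120.5 and 68.1 at 48 h (-0.42, adjusted p = 0.074), after -1.95 in the step before, a difference of 1.52 (adjusted p = 0.018). RAD54L and PSMC3IP, both of homologous recombination, differed by 1.18 and 1.07, and H2AX by 1.04 (adjusted p = 0.018, 0.021 and 0.049). Leaving out 48 h replicate 1 or 48 h replicate 3 ended each of these calls of a difference.

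Side by side, the mitotic lists had medians in the last step close to those in the step before, and the replication lists had smaller ones. The spindle list was at -1.19 in the last step and -1.32 in the step before, the mitotic kinases at -1.14 and -1.21, and the kinetochore list at -0.95 and -1.17. Origin licensing genes were at -0.56 and -0.96, fork genes at -0.47 and -0.92, and repair genes at -0.52 and -0.84. The gene by gene test of this difference called 1 member each of the origin licensing, fork, repair and mitotic kinase lists with a higher difference (CDC25A in the last), none with a lower one, and no member of the spindle or kinetochore list. The 2 steps share the 48 h arrays, and nothing further is drawn from the medians.

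**Figure D4:**
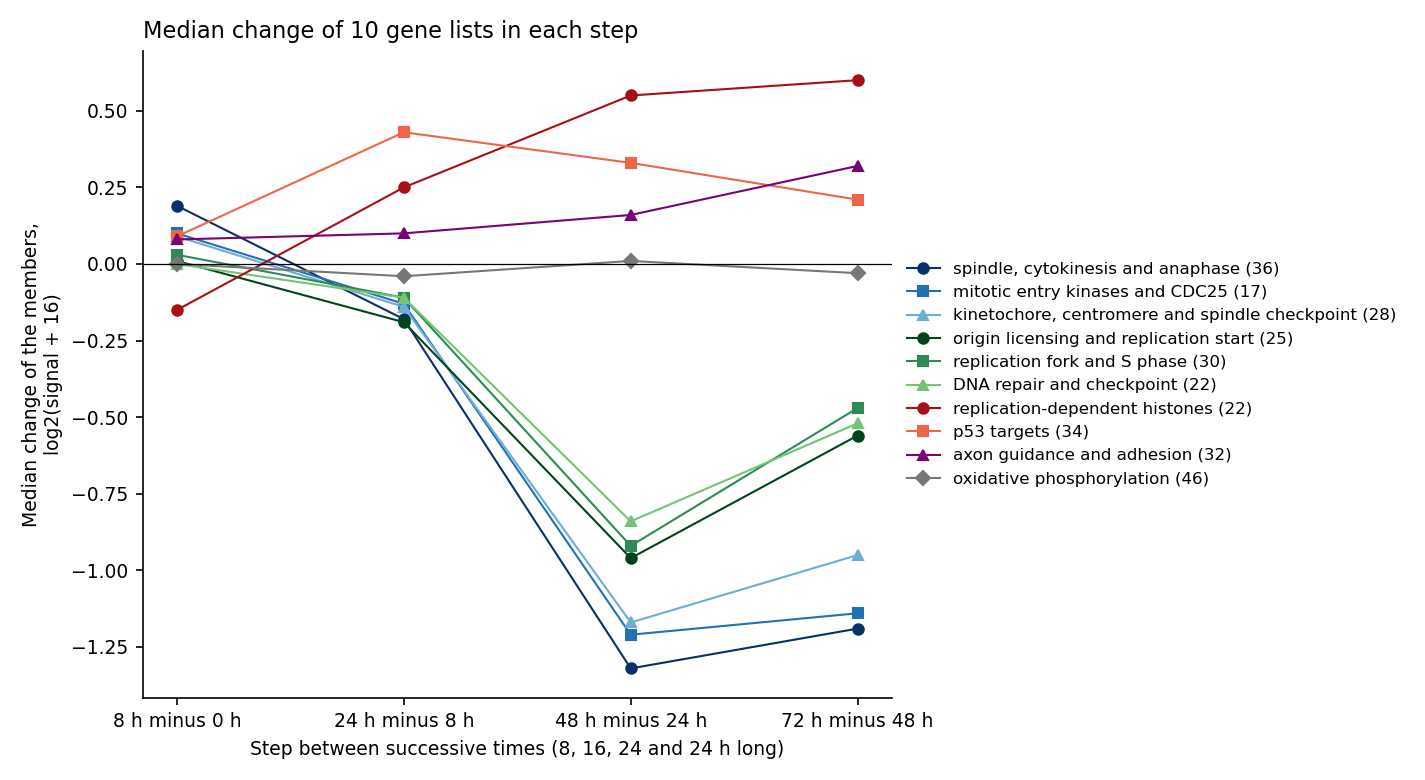
Median change of the members of 10 gene lists, on the scale log2(signal + 16), in the steps 8 h minus 0 h, 24 h minus 8 h, 48 h minus 24 h and 72 h minus 48 h. Successive steps share the arrays of the time between them. The replication and repair lists lie at -0.47 to -0.56 in the last step, against -0.84 to -0.96 in the step before, and the spindle list at -1.19 against -1.32.

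Among the genes that rose were the replication-dependent histones, whose transcripts normally end in a stem-loop in place of a poly(A) tail and accumulate in S phase. Of 22 measured, 10 were higher at 72 h and none lower, with a median of 0.60. The share called was 45.5%, beside 10.7% of all genes tested called in either direction and 4.54% called higher. H2BC12 had 782.8, 928.0 and 1789.0 at 72 h against 366.5, 336.1 and 649.6 at 48 h and rose by 1.31 ± 0.26 (adjusted p = 0.0033). H2BC9 and H2AC8 both rose by 1.14 and the linker histone H1-2 by 1.13. The third 72 h array was the highest of its time for all 10 histones that rose and for 21 of the 22 measured. Without it 7 were called, among them H2BC12 (0.96, adjusted p = 0.016) but not H1-2 (0.83, adjusted p = 0.12), and without 48 h replicate 2 the count was 5. Histone genes of a cluster are close in sequence, so probe sets may detect several of them. Whether the signal came from transcripts with a stem-loop or with a poly(A) tail was not tested. Replication-independent histones moved less, and H2AZ2 and H2AZ1, variants found at gene starts, fell by 0.62 and 0.29.

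Of 34 p53 targets measured, 6 rose and none fell, with a median of 0.21 and 30 values above 0. The share called was 17.6%, beside 10.7% of all genes tested called in either direction and 4.54% called higher. PLK2, a kinase of the Polo family, rose by 0.55, CYFIP2 by 0.45 and TNFRSF10B, a death receptor, by 0.27. Other probe sets of TNFRSF10B were at -0.19 and -0.15, and the mean of its probe sets gave -0.02. CDKN1A, which encodes the CDK inhibitor p21, read 2019.0, 2041.6 and 1906.3 at 72 h against 1726.6, 1517.9 and 1714.2 at 48 h. Its groups did not overlap, yet the difference of 0.27 did not pass (adjusted p = 0.087) unless the replicate number was used as a block (adjusted p = 0.039). Neither MDM2 (0.21, adjusted p = 0.26) nor BAX (-0.12, adjusted p = 0.74) passed, though 2 other probe sets of MDM2 were called higher, the highest at 0.61. The block gave 10 calls in the list, and median centring gave 2. Leaving out 48 h replicate 1, 72 h replicate 2 or 72 h replicate 3 gave 3 each time, and leaving out 48 h replicate 2 gave 2. Of 6 CDK inhibitors, CDKN3, a phosphatase that acts on CDKs and is itself expressed in dividing cells, fell by 1.39, and CDKN1B was at -0.03. In the apoptosis list 1 of 23 members passed (4.35%, beside 10.7% of all genes tested called in either direction and 4.54% called higher). It was the survival gene BCL2, which rose by 0.60 ± 0.10 (adjusted p = 0.00079).

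RET had the largest rise of all genes tested. It read 512.1, 420.0 and 686.6 at 72 h against 107.5, 108.2 and 183.9 at 48 h, a rise of 1.91 ± 0.30 (adjusted p = 0.00036). Its mean signal was 29.7 at 0 h and 24.4 at 24 h, so the measured increase lay after 24 h, and it amounted to 1.91 in each of the last 2 steps, which share the 48 h arrays. Both other RET probe sets were also called, at 1.0 and 1.34. Of the coreceptors and related receptors measured, GFRA1 (-0.28), GFRA2 (-0.12), NTRK3 (-0.09) and ALK (-0.05) did not pass, and BDNF, a neurotrophin, rose by 0.53 (adjusted p = 0.046) but not without 72 h replicate 3 (adjusted p = 0.23).

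In the list of ERK feedback and immediate early genes, a pathway that RET and other receptors can activate, 4 of 30 measured rose and none fell. The share called was 13.3%, beside 10.7% of all genes tested called in either direction and 4.54% called higher. The median was 0.20. DUSP6, the ERK phosphatase, read 198.9, 178.4 and 237.0 at 72 h against 86.9, 71.6 and 148.3 at 48 h and rose by 0.95 ± 0.26 (adjusted p = 0.028). Its other probe sets gave 1.10 and 1.40, both called. JUN, a subunit of AP-1, had 352.0, 423.6 and 389.7 at 72 h against 216.1, 172.2 and 245.8 at 48 h and rose by 0.84, and JUND by 0.52. DUSP1, another phosphatase of the family, rose by 0.38, with 2 other probe sets not called. SPRY2 (1.18), ETV4 (1.0), ETV5 (0.97) and SPRY4 (0.92) had differences as large without passing, with adjusted p of 0.054 to 0.098. With the replicate number as a block 13 of the 30 were called, among them ETV5 (adjusted p = 0.00035). Without 72 h replicate 3, without 72 h replicate 1, without 48 h replicate 1 and without 48 h replicate 2 the count was 2 each time, and DUSP6 was not called without the first of these (adjusted p = 0.10).

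Neuronal genes rose in part. Of the axon guidance and adhesion list, 9 of 32 rose and none fell, with a median of 0.32. The share called was 28.1%, beside 10.7% of all genes tested called in either direction and 4.54% called higher. NRP1, a coreceptor for semaphorins and VEGF, had 156.9, 161.7 and 180.7 at 72 h against 49.7, 69.7 and 64.7 at 48 h and rose by 1.24 ± 0.17 (adjusted p = 0.00013). UNC5C, a netrin receptor, rose by 0.90, SLIT2, a guidance ligand, by 0.71 and CDH11 by 0.60. Without 48 h replicate 2 the list had 4 calls, and SLIT2 and CDH11 were not called without 72 h replicate 3 (adjusted p = 0.061 and 0.071). Of the synaptic vesicle list, 7 of 26 rose and 1 fell (30.8% called, beside 10.7% of all genes tested). CADPS, which primes dense-core vesicles for release, had 213.5, 203.3 and 196.6 at 72 h against 66.3, 68.7 and 88.2 at 48 h and rose by 1.29 ± 0.14 (adjusted p = 7.6e-06), and its 2 other probe sets were called as well. Here the third 72 h array was the lowest. UNC13A, another priming factor, rose by 0.55, while SYN2 fell by 0.48. The synaptic count was 4 without 48 h replicate 2 or without 72 h replicate 1, and 5 without 48 h replicate 3.

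Of the neuronal cytoskeleton list, 7 of 27 rose and 2 fell (33.3% called, beside 10.7% of all genes tested). The median was 0.18. MAPT, the axonal tau protein, rose by 0.73, L1CAM, an adhesion molecule, by 0.69, and the neurofilament subunit NEFM by 0.69. NEFM was not called without 72 h replicate 3 (adjusted p = 0.10). STMN1, a microtubule destabiliser abundant in dividing cells, fell by 0.50 and DPYSL2 by 0.31. General neuronal genes of the list differed among themselves. DCX (0.63), NEFL (0.58) and MAP1B (0.31) were called higher, while GAP43 (0.09), MAP2 (-0.04), TUBB3 (0.21) and ELAVL4 (-0.02) did not pass. None of 23 voltage-gated channel genes was called in limma, with a median of 0.15. Of them 3 had an unadjusted p under 0.05, beside 3044 of all 11774 genes tested. Groups did not overlap for 5 of the 23, against 29.9% of all genes tested.

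The noradrenergic programme moved in both directions. DBH, which converts dopamine to noradrenaline, read 193.0, 144.9 and 93.3 at 72 h against 435.0, 332.8 and 328.6 at 48 h and fell by 1.29 ± 0.20 (adjusted p = 0.00035). Its means over the 5 times from 0 h to 72 h were 88.8, 106, 213, 365 and 144, so it turned down in the last step. SLC6A2, the noradrenaline transporter, was dim and fell by 0.80 (adjusted p = 0.042), though not without 72 h replicate 3 (adjusted p = 0.17). MAOA, which degrades the amine, rose by 0.63, SCG2, a granule protein, by 0.85 and PCSK1N by 0.51. SCG2 was not called without 72 h replicate 3 (adjusted p = 0.066). These make 3 higher and 2 lower of 15 in the catecholamine and granule list (33.3% called, beside 10.7% of all genes tested). That list had 3 calls without 48 h replicate 1 or without 72 h replicate 3 and 2 without 48 h replicate 2. Of 19 core transcription factors, SOX11 and TBX2 rose by 0.33 and 0.34 and MEIS2 fell by 0.41 (15.8% called, beside 10.7% of all genes tested). The block gave 5 calls in that list, and each of the fits without 48 h replicate 1, 48 h replicate 2, 72 h replicate 1 and 72 h replicate 3 gave 1. MYCN, amplified in this line, read 5511.4, 5479.3 and 4876.4 at 72 h against 6128.4, 4986.8 and 5036.4 at 48 h and was not called (-0.02 ± 0.08, adjusted p = 0.91).

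Of 25 matrix and integrin genes, 5 rose and 1 fell (24.0% called, beside 10.7% of all genes tested). LUM, the proteoglycan lumican, had 315.2, 395.0 and 328.7 at 72 h against 86.1, 143.4 and 177.8 at 48 h and rose by 1.30 ± 0.20 (adjusted p = 0.00029). The collagen genes COL6A2, COL6A1 and COL11A1 rose by 0.62, 0.59 and 0.57. The other collagen genes measured did not pass: COL1A1 (-0.32), COL2A1 (-0.25), COL5A1 (-0.08), COL4A2 (0.03), COL18A1 (0.27) and COL4A1 (0.28). The member that fell was LAMA1 (-0.38). LUM is also a fibroblast marker. Of the 6 fibroblast markers past the filter it alone rose, PDGFRA fell by 0.45, and the summed signal of all 11 was 1636 to 1954 at 72 h and 1765 to 1878 at 48 h. The 5 markers that did not pass the filter had means of 14.9 at 72 h and 18.9 at 48 h for DCN, 13.7 and 10.6 for COL3A1, 7.4 and 14.7 for COL1A2, 8.33 and 3.0 for FAP, and 2.93 and 3.03 for POSTN. Of 18 Notch pathway genes 3 rose, HEY1 by 0.67, RFNG by 0.57 and JAG2 by 0.51, and none fell. That made 16.7% called, beside 10.7% of all genes tested called in either direction and 4.54% called higher. HEY1 was not called without 72 h replicate 3 (adjusted p = 0.22). The block gave 6 calls in the Notch list, and the fit without 48 h replicate 3 gave 1.

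Genes for growth and for basic functions moved little. None of 37 ribosomal protein genes and none of 46 oxidative phosphorylation genes was called in limma, with medians of 0.07 and -0.03. An unadjusted p under 0.05 was reached by 2 and 6 of them, beside 3044 of all 11774 genes tested. Of 32 MYC-driven ribosome biogenesis and growth genes 2 fell, CDCA7 by 0.46 and GAR1 by 0.38, and the median was 0.01. None of them rose, and the share called was 6.25%, beside 6.14% of all genes tested called lower. Of 28 proteasome genes 2 fell and of 34 splicing factors 3 fell, by 0.20 to 0.27. The shares called were 7.14% and 8.82%, beside 6.14% of all genes tested called lower. Of the splicing factors 15 had an unadjusted p under 0.05 in limma, 7 had a difference above 0, and the median was -0.14. Single arrays left out took the splicing calls to between 0 and 2, while array weights gave 8 and the replicate block 7. In cholesterol and fatty acid synthesis ACLY, FDPS and EBP fell by 0.38, 0.35 and 0.33 and FASN rose by 0.45. In all, 1 was higher and 4 lower of 24 (20.8% called, beside 10.7% of all genes tested). Without 48 h replicate 1, 48 h replicate 2 or 72 h replicate 1 that list had 2 calls, and without 72 h replicate 2 it had 3. The proteasome calls were 0 without 48 h replicate 1, 72 h replicate 1 or 72 h replicate 3, and 6 with array weights. Of 11 reference genes, GUSB and HPRT1 fell by 0.39 and 0.37 (18.2% called), while ACTB (-0.04) and GAPDH (0.05) were not called. In the interferon and MHC list 2 of 16 fell and none rose. That made 12.5% called, beside 10.7% of all genes tested called in either direction and 6.14% called lower. IFI44 had 324.4, 294.4 and 178.3 at 72 h against 858.8, 811.2 and 720.5 at 48 h, and fell by 1.57 ± 0.15 (adjusted p = 3.3e-06). IFI44L, which was dim, fell by 0.73. In the remaining lists few members passed, with shares called of 3.7% to 11.4%, beside 10.7% of all genes tested. Of 33 hypoxia and glycolysis genes VEGFA, the angiogenic growth factor, and PFKP rose, by 0.70 and 0.34, and without 48 h replicate 1, 48 h replicate 2 or 72 h replicate 3 neither did. Of 32 genes of the ATF4 and endoplasmic reticulum stress list 3 rose, ATF4 itself by 0.41, with 1 call without 48 h replicate 1 and none without 48 h replicate 2 or 72 h replicate 3. Of 35 autophagy genes 3 rose and 1 fell, of 40 lysosomal genes 1 rose and 2 fell, of 27 heat shock and chaperonin genes 1 rose, and of 11 genes of the insulin-like growth factor axis IRS1 fell by 0.49. Leaving out 48 h replicate 2 left 0 autophagy calls, 48 h replicate 3 or 72 h replicate 3 left 1, and 48 h replicate 1 left 2. The block gave 7 lysosomal calls and 4 in the growth factor axis.

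LTF, which encodes the iron-binding protein lactoferrin, had the largest fall of all. It read 66.3, 69.5 and 33.3 at 72 h against 305.2, 326.1 and 223.7 at 48 h and fell by 2.08 ± 0.22 (adjusted p = 6.8e-06). Of the other large rises, P3H2, a collagen prolyl hydroxylase, had 167.9, 163.9 and 223.0 at 72 h against 29.5, 40.9 and 67.0 at 48 h and rose by 1.73. SHISA2 rose by 1.53, RGS16, a regulator of G protein signalling, by 1.39, and PMEL, a melanosome matrix protein, by 1.33. For SHISA2 and RGS16 the third 72 h array was far above the others in signal, at 268.7 against 144.6 and 140.9 and at 139.4 against 66.0 and 61.0, and without it the rises were 1.24 and 1.07.

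Some genes that changed in the last step were at 48 h near their level at 0 h, with a difference under 0.25, whatever they did in between. Since the 48 h arrays enter both differences, the groups were chosen partly by the arrays they are compared on. PTCHD1, a membrane protein of the Patched family, read 110.4, 113.1 and 126.7 at 72 h against 39.6, 40.8 and 38.5 at 48 h, with means of 40.3 at 0 h and 37.3 at 24 h. It rose by 1.25 ± 0.12 (adjusted p = 4.0e-06), and its last step exceeded the one before by 1.18 (adjusted p = 0.028, and 0.099, 0.086 and 0.13 without 48 h replicates 1, 2 and 3 in turn). PRKCA, protein kinase C alpha, had 437.2, 429.6 and 617.0 at 72 h against 165.1, 207.7 and 231.1 at 48 h and rose by 1.22, with a mean of 149.5 at 24 h and 198.4 at 0 h. SFRP1, a Wnt antagonist, and PPP1R12C, a phosphatase subunit, rose by 0.89 and 0.92. On the other side PPP1R17, THSD7B, ATOH8 and LRRCC1 fell by 1.02, 0.95, 0.92 and 1.0, each without overlap.

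Other genes turned round, passing the threshold in 1 direction between 0 h and 48 h and in the other in the last step. Here too the 48 h arrays enter both differences, with opposite sign, so these genes were chosen partly by the arrays they are compared on. CKM, the muscle creatine kinase, had 84.6, 95.2 and 57.0 at 72 h against 202.0, 177.7 and 141.7 at 48 h and fell by 1.01, back to below its mean of 105 at 0 h. CBARP, a regulator of calcium channels, had 40.3, 42.8 and 54.7 at 72 h against 6.1, 18.9 and 16.7 at 48 h and rose by 1.07. JUN and NQO2, a quinone reductase, turned upward, by 0.84 and 0.73. SQSTM1, an autophagy receptor, and MAP1A also rose, by 0.55 and 0.71, but neither was called without 72 h replicate 3 (adjusted p = 0.14 and 0.15).

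The first 24 h of the time course share no array with the last 24 h, so the 2 periods can be compared directly. Between 24 h and 0 h, 911 genes were higher (7.74% of genes tested) and 673 lower (5.72%), and median centring turned that split to 457 higher and 727 lower. The total of 1584 became 1006, 1039 and 1014 without replicates 1, 2 and 3 of 0 h, and 1025 and 1019 without replicates 1 and 3 of 24 h. Of the 535 genes that rose in the last step, 128 were also higher at 24 h (23.9% of the 535 and 14.1% of the 911), and 9 were lower. Of the 723 that fell, 79 were also lower at 24 h (10.9% of the 723 and 11.7% of the 673), and 24 were higher. The test of the difference between the 2 changes called 1026 genes (8.71%), 384 with a higher and 642 with a lower difference in the last period. Leaving out 48 h replicate 2 gave 637 and leaving out 0 h replicate 3 gave 650, while the count was 1697 with the replicate number as a block among the arrays of these 4 times.

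Mitotic genes were prominent on the lower side of this test. Of the spindle list 30 of 36 members had a lower difference in the last 24 h, of the kinetochore list 18 of 28 and of the mitotic kinases 12 of 17, while these lists had medians of 0.01, -0.05 and -0.01 between 24 h and 0 h. NEK2 had mean signals of 404, 481, 196 and 54.9 in the order 0, 24, 48 and 72 h, and its 2 changes differed by -1.82 (adjusted p = 1.1e-05). Among p53 targets the difference was lower for 8 of 34 and higher for none. DBH had the largest negative difference, -2.41 (adjusted p = 4.3e-05), since it rose early and fell late. On the higher side, RET differed by 2.10 and P3H2 by 2.18. PSMD10, RAB7A and PIP4P2, which encode a proteasome assembly factor, a late endosome GTPase and a lipid phosphatase, stood there with other values. They fell between 0 h and 24 h, PSMD10 to a mean of 121 at 24 h against 637 at 0 h, and were not called in the last step, with PSMD10 at 84.2 at 72 h and 103 at 48 h. For ETV5 and NQO1 the difference was 1.88 and 1.74, with an early fall and late values of 0.97 and 0.81 that did not pass (adjusted p = 0.083 and 0.064) unless the block was used (adjusted p = 0.00035 and 0.0028).

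**Figure D5:**
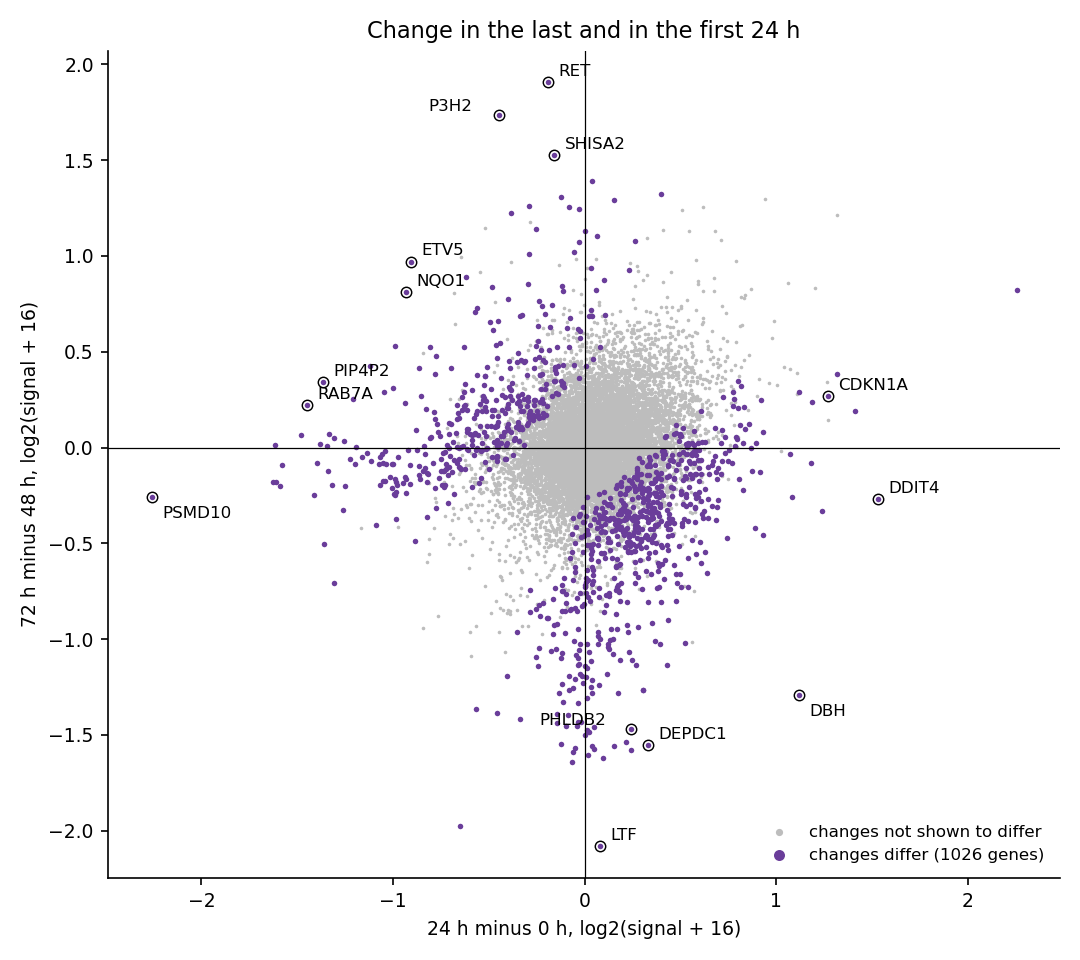
Each point is a gene, with its change between 24 h and 0 h on the horizontal axis and between 72 h and 48 h on the vertical axis, both on the scale log2(signal + 16). The 1026 genes whose 2 changes differed at an adjusted p under 0.05 are coloured. LTF and DEPDC1 lie low near the middle, DBH low on the right, and PSMD10 far to the left near 0 on the vertical axis.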

How the data were processed

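Total RNA (4 µg, labelled by a one-cycle protocol per the labels) was measured on 15 arrays. The deposited table holds the authors' signal intensity for each of 54675 probe sets, made with MAS5 and GCOS per the submitters' processing notes, with no versions given. Since the trimmed mean was 100.01 on every array, the intensities were used as deposited, as log2(value + 16). Gene names come from the platform annotation: 41091 probe sets named 1 gene, 1801 several and 11721 none, and 62 were controls. Probe sets with a mean log2 value at or above the median of the non-control probe sets passed (27307, signal of about 16.6), and the brightest probe set naming only that gene stood for it, which gave 11774 genes. A single limma 3.58.1 model (lmFit, then eBayes with trend, R 4.3.3) covered all 5 times, with Benjamini-Hochberg adjustment over every gene tested and a threshold of 0.05. Python 3.11.15, pandas 2.3.3 and matplotlib 3.10.9 made tables and figures. The number of arrays limits the precision. Tested on simulated data for 72 h against 48 h (11774 genes), the fit recovered 3, 27, 49 and 50 of 50 changed genes at log2 changes of 0.25, 0.5, 1 and 2. The simulated noise was normal, independent between arrays and, for each gene, of the same spread on every array. The real arrays of these times had weights of 0.356 to 2.17, so recovery in the real data may differ.

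Same-numbered arrays of 72 h and 48 h had residual correlations of 0.14, 0.12 and 0.35, and differently numbered ones of -0.28 to 0.17. The ranges overlap, so they do not settle a pairing, and the labels do not state one. The replicate numbers were taken as pairs in alternative fits only. The members, lists and comparisons were chosen with earlier results of these data known. The rule for named genes took the 15 largest rises and falls without overlap, up to 4 called members of each list, the 8 highest and 8 lowest of each difference of steps, 6 rises and 6 falls from near the 0 h level, 6 of each that turned round, and a sentinel list. Other genes given with values were named after these were seen, among them PLK1, AURKA, AURKB, CENPA, SPRY2, ETV4, SPRY4, SYN2, STMN1, SMC1A, CDCA5 and all members said not to have passed. Lists are described by counts and medians, with no set test. Promoter sequences are from RefSeq (GRCh38.p14). Alternatives changed the offset, scaling, filter, probe sets per gene, variance prior, array weights, block and arrays in the fit.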

Additional observations from a re-analysis of the deposited data

Results flagged for a closer look

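Changes that differed between the last step and the step before it are listed first, as the last step minus the step before. They were 1.52 for CDC25A, 1.38 for E2F1, 1.22 for PALM3, 1.18 for PTCHD1, 1.18 for RAD54L, 1.12 for SLC1A5, 1.07 for PSMC3IP and 1.04 for H2AX. On the lower side they were -2.03 for DBH, -1.47 for ARHGAP36, -1.26 for TRAPPC6A, -1.23 for ABAT, -1.08 for MIR100HG, -1.08 for DNAJC12, -0.93 for PHLDB2 and -0.86 for C9orf85. ABAT, MIR100HG, DNAJC12 and C9orf85 had risen by 1.0 to 1.46 between 24 h and 48 h and had values of -0.03 to 0.28 in the last step, none of them called. None of the 16 was called without 48 h replicate 1 or without 48 h replicate 3.

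Differences between the last 24 h and the first 24 h were 2.18 for P3H2, 2.10 for RET, 2.0 for PSMD10, 1.88 for ETV5, 1.74 for NQO1, 1.71 for PIP4P2, 1.69 for SHISA2 and 1.67 for RAB7A. On the lower side they were -2.41 for DBH, -2.16 for LTF, -1.88 for DEPDC1, -1.82 for NEK2, -1.80 for DDIT4, -1.75 for TOP2A, -1.72 for DLGAP5 and -1.71 for PHLDB2. DDIT4, a stress-induced inhibitor of mTORC1, had mean signals of 141, 433, 771 and 660 in the order 0, 24, 48 and 72 h.

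Of the 3417 probe sets past the filter that name no gene, 99 passed the threshold between 72 h and 48 h, 46 higher and 53 lower. The most extreme differences were 1.82 and -1.36.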

How the results depend on the processing

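The count of 1258 genes between 72 h and 48 h was 880 to 1855 under the alternatives that kept all arrays and the threshold, 656 to 1148 without single arrays and 114 with an absolute change over 1 required. Fewer genes differed between the last step and the step before (39), and this count moved most. It was 70 with an offset of 64, 72 with quantile normalisation, 7 with median centring, 12 without the filter, 69 over the brightest probe sets, 17 over all probe sets past the filter, 0 over all probe sets unfiltered (limma, 4511 at an unadjusted p under 0.05), 19 without the trend, 317 with array weights, 24 with replicates 1 and 2 alone (an alternative chosen after seeing the data), 181 with the replicate block, 0 with only the arrays of these times (1619 at an unadjusted p under 0.05), 141 with the replicate block among those arrays, 15 with an absolute difference over 1, and 0 to 81 without single arrays. The last 24 h against the first gave 1026, with 1618 under array weights, 1697 under the replicate block among the arrays of these times, 200 with an absolute difference over 1 and 637 to 1044 without single arrays. Between 24 h and 0 h the count was 1584, with 70 over 1 and 1006 to 1294 without single arrays. Causes of these shifts were not tested. Of 154 named genes called between 72 h and 48 h, 89 lost the call under none of the alternatives they could be tested in, which were up to 19 (118 genes were among the brightest probe sets and 150 past the filter with an offset of 1); median centring lost 20, no filter 29, leaving out 48 h replicate 2 lost 50 and leaving out 72 h replicate 3 lost 45. The replicate block gained ETV5, NQO1 and CDKN1A and changed no other call of a named gene in this step. TNFRSF10B turned to -0.02 with the mean of its probe sets, against 0.27. Changes of dim genes are understated by the offset, and 3 arrays a time limit precision.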

Other observations

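Of the 88 genes that fell by more than 1, 23 stood outside the cell cycle lists, and several of those have functions other than division. They were picked after their values were seen. GPM6B, a membrane proteolipid of neural cells, read 604.9, 586.6 and 713.3 at 72 h against 1720.3, 1590.5 and 1843.0 at 48 h and fell by 1.42 (adjusted p = 6.8e-09). USP18, an interferon-induced protease that removes ISG15, read 226.2, 240.5 and 332.5 at 72 h against 579.5, 603.7 and 801.0 at 48 h and fell by 1.27 (adjusted p = 7.7e-06). For these genes the third array was the highest of each time, unlike in the mitotic genes. TRMT5, a tRNA methyltransferase, fell by 1.34, and PHLDB2, a cortical cytoskeleton protein, fell by 1.47. PCLAF, KIF18B, DIAPH3, PIMREG and CDCA2, which act in replication or division, fell by 1.02 to 1.25.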
